A study of Rattus norvegicus with 9 samples.

Results

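The globin and red blood cell genes described here are Hba1, Hbb, LOC100134871, Hbb-b1, Alas2 and Slc4a1, which are 6 of the 37209 genes in the count table of rat frontal cortex. They were selected by name as genes of red blood cells, with their CPM (read counts scaled to the size of each library) in these 9 rats already known, to follow the blood left in the tissue from rat to rat. Their group values are therefore given as a description without a test. All 6 had enough reads to enter the fit, which covered 16837 genes.

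The rats were male Wistar rats aged 14 weeks, with 3 rats in each of 3 groups, and each rat is 1 RNA library. Control rats (A1, A2 and A6) were left with their mothers. MS rats (B3, B4 and B6) went through maternal separation, being kept from their mothers for 4 h a day between postnatal day (PND) 1 and PND 21. MS+EA rats (C3, C10 and C16) went through the same separation and then had electroacupuncture at the acupoints GV20 and GV29 every other day from PND 61 to PND 81. Per the methods, Control and MS rats were given the anesthesia alone, isoflurane was also used for the removal of the tissue, and no rinsing of the vessels is described. The sequenced groups hold no rats with needles but without current, and no rats with electroacupuncture but without separation.

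Mature mammalian red blood cells have no nucleus, yet young ones that have just entered the blood still carry RNA, most of it for globins. Hemoglobin is built of alpha and beta globin chains that each hold a heme, and heme synthesis in red cells begins with the enzyme encoded by Alas2. Neurons and other brain cells have also been found to express low levels of globin genes, so that globin reads in brain tissue can come from blood or from brain cells, and in bulk tissue fewer cells of a type and less RNA per cell cannot be told apart.

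The beta globin genes are neighbours that resemble each other, and the DNA around their start sites is shown for how alike it is there. Their transcripts were not compared here. Of the 6 genes, 5 matched a single RefSeq gene, and LOC100134871 is Hbbl1 there. The symbol Hba1 is a synonym of 2 RefSeq genes, Hba-a1 and Hba-a2, so no sequence was assigned to it. The sequences below run from 250 bases before the start site to 50 bases after it on the minus strand of chromosome 1 in the RefSeq annotation of GRCr8, which is a later build than the one the reads were mapped to. They lie at chr1:167663672-167663971 for Hbb, chr1:167650186-167650485 for LOC100134871 and chr1:167643471-167643770 for Hbb-b1. Capitals mark the CACACCC and CCAAT boxes, elements known from beta globin promoters, where they occur on the strand shown.
Hbb: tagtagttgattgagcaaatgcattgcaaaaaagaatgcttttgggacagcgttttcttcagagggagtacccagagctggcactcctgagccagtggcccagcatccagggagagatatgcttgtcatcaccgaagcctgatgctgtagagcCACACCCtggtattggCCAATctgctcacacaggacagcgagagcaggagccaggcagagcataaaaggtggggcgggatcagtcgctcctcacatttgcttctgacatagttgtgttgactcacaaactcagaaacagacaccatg
LOC100134871: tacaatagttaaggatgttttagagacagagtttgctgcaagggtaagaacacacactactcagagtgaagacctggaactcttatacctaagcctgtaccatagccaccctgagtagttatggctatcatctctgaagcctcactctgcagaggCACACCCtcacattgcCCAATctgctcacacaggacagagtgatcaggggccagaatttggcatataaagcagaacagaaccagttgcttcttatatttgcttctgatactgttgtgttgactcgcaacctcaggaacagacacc
Hbb-b1: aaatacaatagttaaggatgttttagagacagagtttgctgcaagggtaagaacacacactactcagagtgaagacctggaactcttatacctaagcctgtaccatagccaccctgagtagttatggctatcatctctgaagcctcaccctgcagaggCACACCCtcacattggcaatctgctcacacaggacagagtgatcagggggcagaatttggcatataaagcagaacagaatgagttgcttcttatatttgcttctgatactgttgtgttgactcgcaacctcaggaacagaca

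The windows of LOC100134871 and Hbb-b1 were identical at 292 of 297 aligned bases (98.3%), whereas Hbb and LOC100134871 were identical at 78.4% of 268 aligned bases. The window of LOC100134871 was identical at all 298 aligned bases to that of Hbb-b2, a RefSeq gene that is not one of the 6. CACACCC was found in all 3 windows, with its first base at -97 in Hbb, -95 in LOC100134871 and -92 in Hbb-b1, counted from the start site. CCAAT followed it in Hbb at -81 and in LOC100134871 at -79. On the opposite strand CCAAT was found in Hbb at -86 and in Hbb-b1 at -81, which was the only match in Hbb-b1. ATAAA, the letters of a TATA-like element, lay at -36, -31 and -29 in the same order of genes. The GATA motifs AGATAA and TGATAA were not found in these 3 windows, and AGATAA was found at -136 in the window of Alas2. Both strands were searched. Of all 33469 rat promoter windows of this length, 7.08% held CACACCC, 37.5% CCAAT, 42.5% ATAAA, 11.6% AGATAA and 9.03% TGATAA. A match describes letters in the window only.

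The total was between 16153292 and 19007907 counts in Control rats, 16106381 and 17243320 in MS rats, and 12479905 and 14913736 in MS+EA rats. The MS+EA libraries were thus the shallowest, and a floor of 3 counts corresponded to 0.158 to 0.240 CPM over the 9 rats. Snap25, Syt1, Slc17a7 and Camk2a, which encode proteins of neurons and their synapses, had between 1182 and 2739 CPM in every rat. These levels fitted brain tissue and do not test the label of cortex. No rats of the same group were copies of each other, as the variance between them was at least 6.11 times that of counting error. The labels do not give a litter, batch or date for any rat, so p-values measure the spread between these 9 animals.

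The 4 globin genes together were higher in the separated rats of both groups than in Control rats. Their summed level was 172, 91.1 and 137 CPM in Control rats A1, A2 and A6. It was 200, 285 and 237 CPM in MS rats B3, B4 and B6. The MS+EA rats C3, C10 and C16 had 190, 180 and 268 CPM. Every separated rat thus lay above every Control rat, although the lowest separated rat (C10) and the highest Control rat (A1) were only 180 and 172 CPM. Group means were 134 ± 40.7 CPM in Control, 240 ± 42.5 in MS and 213 ± 48.1 in MS+EA (SD, n = 3 each). The mean of MS rats was 1.80-fold that of Control rats (log2 0.85), that of MS+EA rats was 1.59-fold that of Control rats (log2 0.67), and that of MS+EA rats was 0.884-fold that of MS rats (log2 -0.18), with MS and MS+EA rats overlapping. Both comparisons with Control share the same 3 Control rats. Without A2, the Control rat with the lowest level, the difference was 0.63 for MS and 0.46 for MS+EA on the log2 scale.

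In absolute terms globin reads were few. They made up 0.00921% of all counts in A2 (95% Wilson interval 0.00876 to 0.00969) and 0.0283% in B4 (0.0275 to 0.0291), the lowest and highest rats. Such intervals cover counting error alone. Counting error was thus far smaller than the spread between rats of the same group, which in Control rats alone ran from 1496 to 3223 globin reads.

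**Figure D1:**
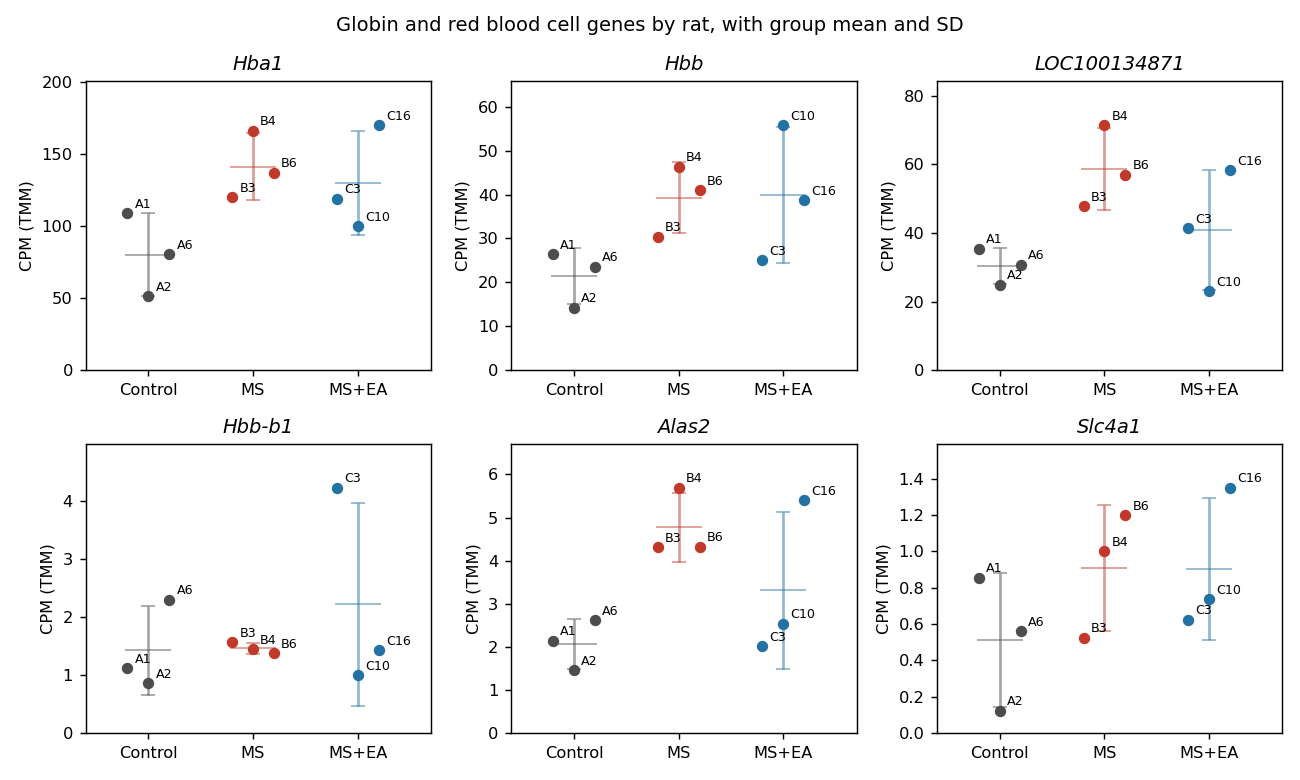
Level of each of the 6 genes in CPM (vertical axes, from 0) in every rat, by group, with points for rats and bars for the group mean and SD (n = 3). MS rats lay above all Control rats for Hba1, Hbb, LOC100134871 and Alas2, and rat C10 was highest of the 9 for Hbb at 55.8 CPM and lowest for LOC100134871 at 23.1 CPM.

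Hba1 encodes an alpha chain of adult hemoglobin. Its level was 109, 51.2 and 80.5 CPM in Control rats A1, A2 and A6, then 120, 166 and 137 CPM in the 3 MS rats (B3, B4, B6), and 119, 100 and 170 CPM in MS+EA rats C3, C10 and C16. All MS rats were above all Control rats, while the lowest MS+EA rat lay below the highest Control rat. The fitted log2 fold change was 0.81 (SE 0.236) for MS against Control, 0.69 (SE 0.237) for MS+EA against Control and -0.12 (SE 0.234) for MS+EA against MS.

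Hba2, another alpha globin gene of the table, is not one of the 6 and gives a reading of the alpha chain that did not choose them. It had 59.8, 26.7 and 33.9 CPM in Control rats, 66.1, 86.2 and 77.4 CPM in MS rats, and 60.3, 53.4 and 89.0 CPM in MS+EA rats, in the same order of animals. The 9 rats ranked in the same order for Hba2 as for Hba1, with C16 and B4 highest and A6 and A2 lowest. By edgeR's quasi-likelihood test with Benjamini-Hochberg adjustment, Hba2 did not pass in any comparison, with log2 fold changes of 0.93 for MS against Control (adjusted p = 0.186), 0.74 for MS+EA against Control (adjusted p = 0.101) and -0.18 for MS+EA against MS (adjusted p = 0.799). As alpha globin genes are known to be close copies and the treatment of reads with several locations is not given in the sources used here, the division of reads between both alpha genes is uncertain and Hba2 is not an independent measurement of Hba1.

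Hbb encodes a beta chain of adult hemoglobin. Control rats A1, A2 and A6 had 26.4, 14.2 and 23.6 CPM, the MS rats B3, B4 and B6 reached 30.4, 46.3 and 41.0 CPM, and MS+EA rats C3, C10 and C16 had 25.0, 55.8 and 38.7 CPM. MS rats again lay above all Control rats, whereas C3 lay among the Control rats and C10 above every other rat. The log2 fold change was 0.87 (SE 0.271) for MS against Control, 0.90 (SE 0.272) for MS+EA against Control and 0.03 (SE 0.265) for MS+EA against MS. Without C10 the difference of MS+EA from Control was 0.57, and without C3 it was 1.15.

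LOC100134871, a beta globin gene near Hbb on chromosome 1, had 35.4, 24.9 and 30.7 CPM in Control rats, 47.8, 71.4 and 56.9 CPM in MS rats, and 41.4, 23.1 and 58.2 CPM in MS+EA rats, in the order A1, A2, A6, B3, B4, B6, C3, C10 and C16. MS rats did not overlap with Control rats, and MS+EA rats ran from below every Control rat (C10) to above 2 of the MS rats (C16). Its log2 fold change was 0.95 (SE 0.255) for MS against Control, 0.42 (SE 0.258) for MS+EA against Control and -0.53 (SE 0.254) for MS+EA against MS. The value for MS+EA against Control was 0.08 without C16 and 0.71 without C10.

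Hbb-b1, a further beta globin gene, was covered by only 14 to 61 reads per rat and did not follow the other globins. It had 1.12, 0.853 and 2.30 CPM in Control rats, 1.57, 1.44 and 1.38 CPM in MS rats, and 4.23, 1.0 and 1.43 CPM in MS+EA rats. Control rat A6 lay above all MS rats, and C3 stood alone as the highest rat. The log2 fold change was 0.05 (SE 0.518) for MS against Control, and its sign turned when A1, A2 or B3 was left out. For MS+EA it was 0.65 (SE 0.509) against Control and 0.60 (SE 0.508) against MS, and without C3 these values became -0.22 and -0.27.

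Alas2 encodes the 5-aminolevulinate synthase of red cell precursors, the first and rate-limiting enzyme of their heme synthesis. It had 2.14, 1.46 and 2.61 CPM in Control rats A1, A2 and A6, 4.31, 5.69 and 4.32 CPM in the 3 MS rats (B3, B4, B6), and 2.01, 2.54 and 5.40 CPM in MS+EA rats C3, C10 and C16. Every MS rat lay above every Control rat, and of the MS+EA rats only C16 reached the MS range while C3 and C10 stayed within the Control range. The log2 fold change for MS against Control was 1.20 (SE 0.348), the highest of the 6 genes. It was 0.67 (SE 0.358) for MS+EA against Control and -0.54 (SE 0.340) for MS+EA against MS. Without C16 both moved, to 0.14 and -1.06.

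Slc4a1 encodes band 3, the anion exchanger of the red cell membrane, and had the fewest reads of the 6 genes, with 2 to 20 per rat. Its level was 0.855, 0.122 and 0.559 CPM in Control rats, 0.524, 1.0 and 1.20 CPM in MS rats, and 0.624, 0.736 and 1.35 CPM in MS+EA rats. The value of A2 rests on 2 reads and is under the floor of 3 counts. All groups overlapped, and the log2 fold change of 0.79 for MS against Control had an SE of 0.578. That value was 0.34 without A2 and 1.40 without A1. On so few reads, no difference between groups is read for Slc4a1.

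**Figure D2:**
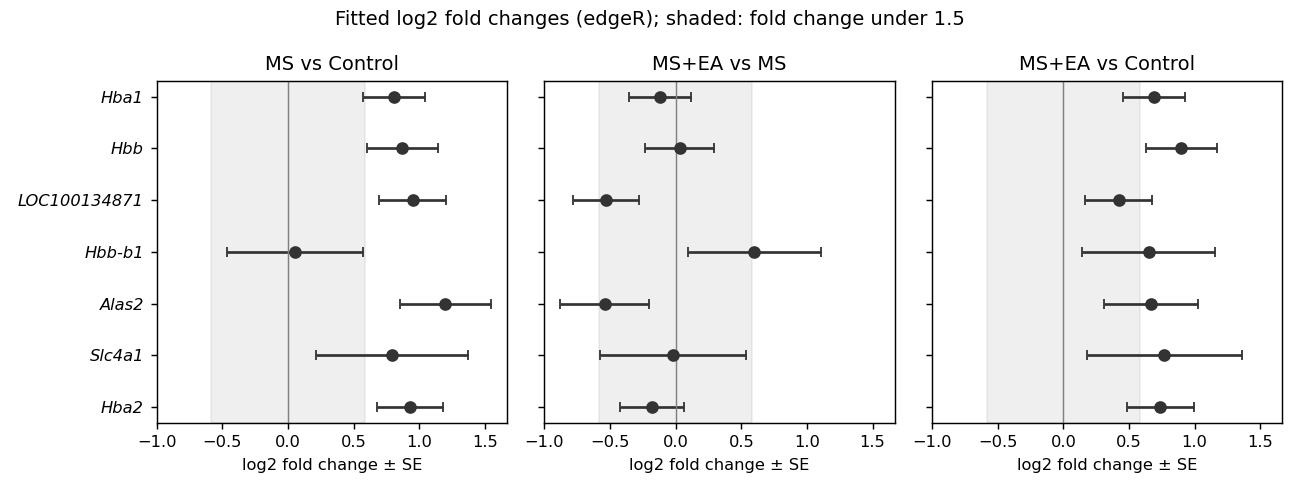
Fitted log2 fold changes (horizontal axes) of the 6 genes and Hba2 in the 3 comparisons, with bars of 1 SE and a shaded zone for fold changes under 1.5. In MS against Control the 6 genes lay between 0.05 and 1.20, and in MS+EA against MS between -0.54 and 0.60.

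Set against the whole table, a gene was called when its fold change exceeded 1.5 in either direction and its adjusted p was under 0.05. In MS against Control, 0 of the 6 genes were called, beside 4 of all 16837 genes (0.0238%), and 4 of the 6 were higher without overlap between the groups, beside 10.03% of all genes. In MS+EA against MS, 0 were called, beside 3 of all genes (0.0178%), and 0 were higher without overlap, beside 8.27%. In MS+EA against Control, 0 were called, beside 230 of all genes (1.37%), and 0 were higher without overlap, beside 13.0%. These comparisons chose the genes, so nothing is read from the counts. Unadjusted p-values were under 0.05 for 1787, 2093 and 3787 of all genes in the same order. The calls turned on the filter for low counts: with every gene of at least 1 count in the fit, Hba1, Hbb, LOC100134871 and Alas2 were among 207 called genes of 25954 in MS against Control (0.798%), and Hba1 and Hbb were among 469 in MS+EA against Control (1.81%). As the same comparisons chose the 6 genes, nothing is read from these calls of them either.

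Rats of the same group differed more in these genes than in most. The SD of log2 CPM within groups was 0.410 for Hba1, 0.467 for Hbb, 0.447 for LOC100134871 and 0.491 for Alas2, against a median of 0.177 over all genes tested. It was larger still for the sparse genes Hbb-b1 (0.707) and Slc4a1 (0.734), which had the fewest reads. Of all genes tested, 17.7% had a larger SD than Hba1 and 3.71% a larger one than Slc4a1.

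The make-up of the globin reads varied less between most rats than their amount, with A6 apart in the alpha genes and C10 in the beta genes. The share of Hba2 in the reads of Hba1 and Hba2 was 34.2% ± 1.87 (SD, n = 9), with A6 lowest at 29.6% (95% Wilson interval 27.6 to 31.7) and the other 8 rats between 33.6% and 36.1%. Beta globin reads made up 27.1% to 34.2% of alpha and beta reads. Hbb took 36.3% to 43.4% of the reads of Hbb and LOC100134871 in 8 rats, with a mean of 40.0% ± 2.47 (SD, n = 8). Rat C10 stood apart, with 834 reads on Hbb and 345 on LOC100134871, a share of 70.7% (95% Wilson interval 68.1 to 73.3). The sum of both genes in C10 was 78.9 CPM, within the 39.0 to 118 CPM of the other rats, so the division of reads between both genes set C10 apart and their sum did not.

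C10 also stood apart in LOC103694857, a sparse globin entry of the table, with 1 read beside 11 to 36 in the other rats. LOC103694855 had 1 read in C10 as well, but 3 to 5 in A2, C3 and A6, so that C10 was not apart there. What sets C10 apart was not tested, since reads were not used here and the files hold only gene totals.

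**Figure D3:**
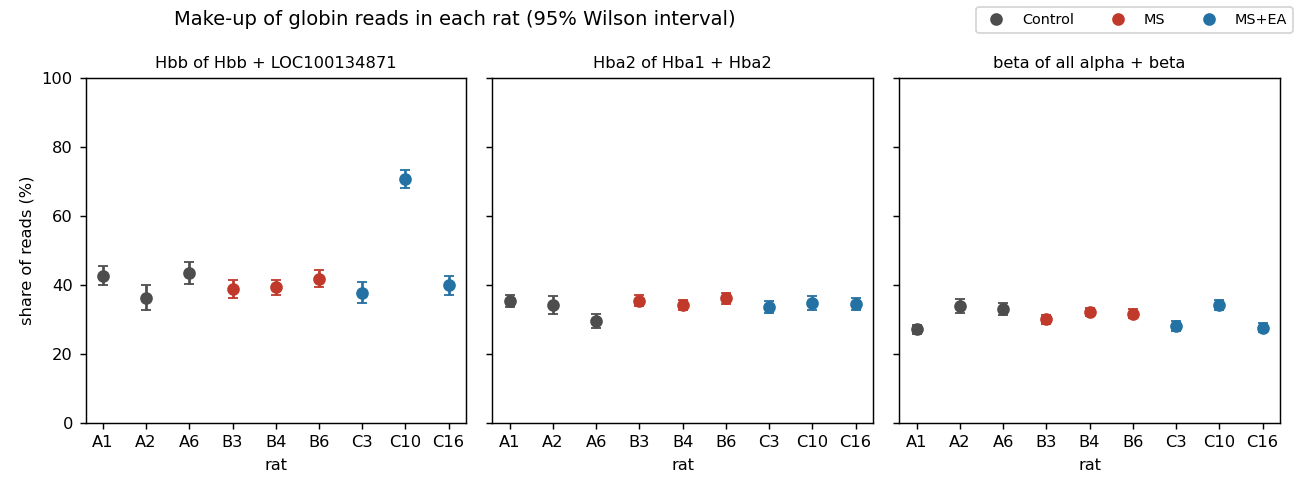
Shares of globin reads in percent (vertical axes, 0 to 100) in each rat (horizontal axes), with 95% Wilson intervals for counting error. The share of Hbb in the reads of Hbb and LOC100134871 was 70.7% in C10 and 36.3% to 43.4% in the other 8 rats, and the share of Hba2 in the alpha reads was 29.6% in A6 and 33.6% to 36.1% in the others.

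Relative to 1000 reads of the 4 globin genes, Alas2 had 15.8 ± 3.31 reads in Control, 19.9 ± 1.63 in MS and 15.0 ± 4.84 in MS+EA rats (SD, n = 3 each). Single rats ran from 10.6 (C3) to 21.5 (B3), and the groups overlapped. Slc4a1 had 1.34 to 5.08 reads per 1000 globin reads and Hbb-b1 5.05 to 22.3, the latter with C3 highest.

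The other genes of heme synthesis act in all cells that make heme. All 8 were measured and 0 of 8 were called in each comparison, with median log2 fold changes of 0.07 for MS against Control, -0.13 for MS+EA against MS and -0.12 for MS+EA against Control, beside medians of -0.00, 0.00 and 0.01 over all genes. Alas1, the housekeeping form of the enzyme, had 39.0, 38.8 and 39.9 CPM in Control rats, 33.3, 33.2 and 31.2 CPM in MS rats and 35, 33.3 and 38.8 CPM in MS+EA rats. MS rats were thus below all Control rats for Alas1, opposite in direction to Alas2, with a log2 fold change of -0.27 (SE 0.0833) that did not pass edgeR's quasi-likelihood test (adjusted p = 0.253, Benjamini-Hochberg). Fech, which inserts iron into the ring to complete heme, had means of 30.0, 34.0 and 32.5 CPM in Control, MS and MS+EA rats, and its log2 fold change of 0.18 for MS against Control did not pass either (adjusted p = 0.463, edgeR), although every MS rat (32.0 to 35.3 CPM) lay above every Control rat (29.4 to 30.6 CPM), as for Alas2. Of the enzymes between them, Alad, Uros, Urod, Cpox and Ppox had log2 fold changes of -0.12, -0.04, 0.18, 0.11 and 0.07 for MS against Control.

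Further globins and red cell genes were grouped into lists. Cygb and Ngb, the cytoglobin and neuroglobin of non-blood cells, were the 2 tested genes of that family, and Cygb stood at 44.5, 44.8 and 37.1 CPM in Control, MS and MS+EA rats, with a log2 fold change of 0.01 for MS against Control. The embryonic globin genes Hbe1, Hbe2, Hbg1 and Hbz had no read in any rat. Of the list of adult and other globins, 3 genes beyond the 6 were tested, Hba2, LOC103694855 and LOC103694857. Their median log2 fold change was 0.93 for MS against Control, -1.24 for MS+EA against MS and -0.21 for MS+EA against Control. The LOC entries had 1 to 36 reads per rat, and the last median became 0.74 without A1 and 0.34 without C10. Hba2, with nearly all the reads of the 3, lay at 0.93, -0.18 and 0.74. LOC287167, a globin entry outside the lists at 0.548 to 1.91 CPM, lay at 0.47, 0.32 and 0.79 and was not called.

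The red cell membrane and skeleton list had 10 tested genes beyond Slc4a1, with medians of 0.15, -0.10 and -0.03 in the comparisons of MS with Control, MS+EA with MS and MS+EA with Control. Its most abundant genes Add1, Sptb, Dmtn and Tmod1, which encode skeleton proteins that neurons also make, had log2 fold changes between -0.10 and 0.05 for MS against Control. Of the 10 genes, 4 were higher in MS than in Control rats without overlap, beside 10.03% of all genes, and 1 was lower. The 4 were Ank1 (ankyrin of the red cell skeleton), Gypc and Xk (membrane proteins) and Aqp1, named after their values were seen, and the log2 fold changes of Ank1, Gypc and Xk were 0.25 (SE 0.112), 0.37 (SE 0.117) and 0.51 (SE 0.333). Epb42, a skeleton protein of red cells with too few reads to be tested, had 2 to 5 reads in Control rats, 7 to 8 in MS rats and 2 to 6 in MS+EA rats. Rhag, of the Rh complex of the red cell membrane, had 0 to 4 reads per rat. Aqp1, a water channel of red cells and other tissues, had 1 to 2 reads in Control rats, 5, 34 and 8 in B3, B4 and B6 of the MS group, and 19, 1 and 23 in MS+EA rats C3, C10 and C16. Its Control rats are all under the floor of 3 counts, so no fold is given.

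Of erythroid maturation and transcription factors, 10 were tested and had medians of -0.05, -0.04 and -0.04. Gata1, the master regulator of red cell precursors, had 0 reads in 8 rats and 1 read in B6. Tfrc, the transferrin receptor for iron uptake, had a log2 fold change of 0.28 for MS against Control (adjusted p = 0.419, edgeR), and Bpgm, which makes the oxygen-release regulator of red cells and is also expressed in brain, one of -0.05. Ahsp, the chaperone of free alpha globin, had 6 to 17 reads in Control rats, 3 to 10 in MS rats and 2 to 8 in MS+EA rats, and Hemgn, a nuclear protein of red cell precursors, had 1 to 4, 5 to 7 and 2 to 4. Ahsp overlapped between the groups, with a log2 fold change of -0.93 (SE 0.584) for MS against Control, and Hemgn was too sparse to be tested. Heme breakdown, export and scavenging had 11 tested genes with medians of -0.00, -0.08 and -0.18, among them Hmox2, a heme oxygenase, at -0.11 and Hp, for haptoglobin, at -0.03 for MS against Control. In none of these lists was a gene called in any of the 3 comparisons by edgeR's quasi-likelihood test under the filter of 10 counts, and with genes of at least 1 count it called Hba2 and Aqp1 in both comparisons with Control.

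**Figure D4:**
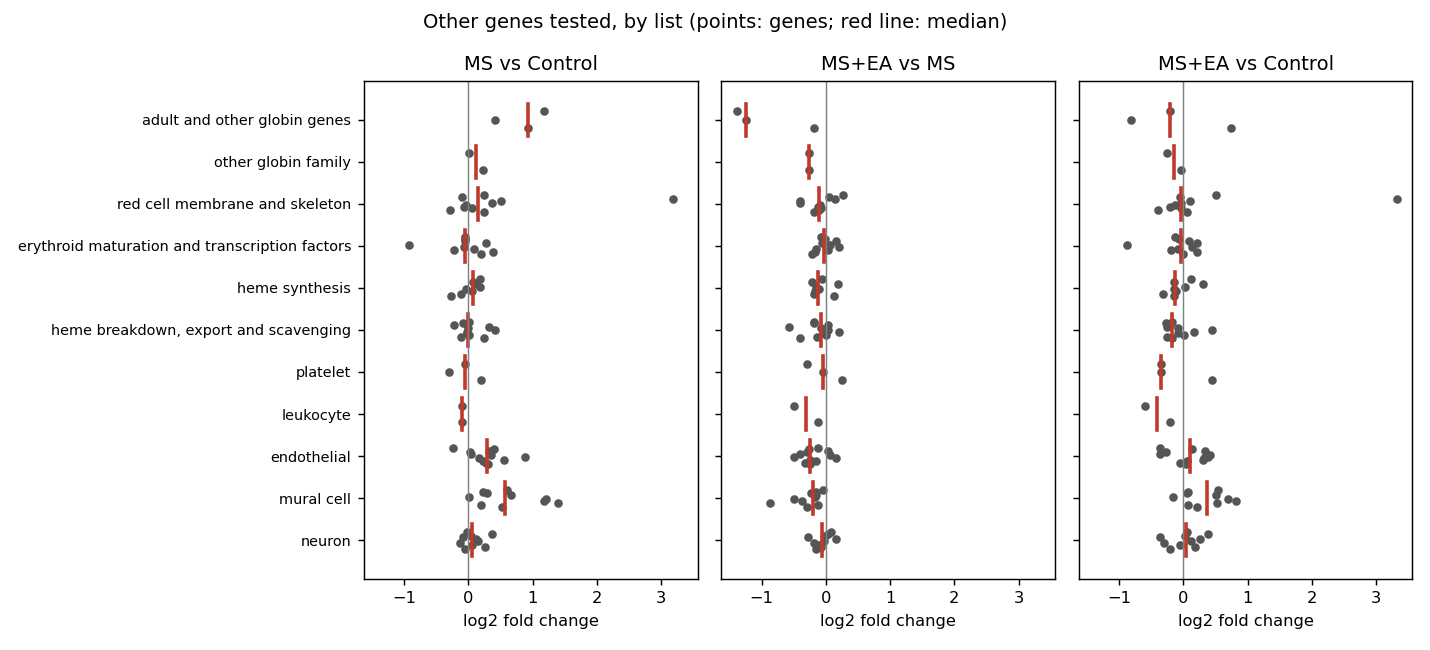
Log2 fold change (horizontal axes) of the tested genes of each list beyond the 6 genes, one point per gene, with a red line at the list median, for the 3 comparisons. The mural cell list had the median farthest from 0 in MS against Control among the lists of 10 or more genes, at 0.56, while heme synthesis lay at 0.07.

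Most markers of other blood cells were near the floor. The groups overlapped in the summed levels, but these rest on few genes, so no amount of other blood cells is read from them. Of 18 leukocyte genes, 3 had no read in any rat and 8 were at or under 3 counts in every rat. The summed level of the 18, mostly Csf3r and Lck, was 7.37 to 8.63 CPM in Control, 7.15 to 7.44 in MS and 5.88 to 7.83 in MS+EA rats. S100a8 and S100a9 of neutrophils had 0 to 5 reads per rat, and Mpo had none. Only 2 leukocyte genes could be tested, Csf3r and Lck, both with a log2 fold change of -0.10 for MS against Control. The summed level of 10 platelet genes, mostly Gp1bb, was 37.8 to 56.9 CPM in Control, 38.6 to 51.1 in MS and 36.4 to 46.0 in MS+EA rats. Pf4, a platelet granule protein, had 1 to 9 reads per rat, and Ppbp had none. The 3 tested platelet genes had a median of -0.06 for MS against Control.

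Most genes of vessel walls had log2 fold changes above 0 for MS against Control, as the globins did, and none was called by edgeR with the filter used throughout. With genes of at least 1 count in the fit, edgeR called Kdr, Vtn, Tagln, Myh11 and Acta2. Of the tested genes, 5 of 10 mural and 5 of 12 endothelial genes were higher without overlap between the groups, beside 10.03% of all genes. The mural cell list was drawn up for smooth muscle cells and pericytes. All 10 of its genes had log2 fold changes above 0 for MS against Control, with a median of 0.56. However, Cspg4 lay at 0.01, and 9 of 10 were above 0 when total counts replaced TMM. All 10 lay below 0 for MS+EA against MS (median -0.20), and 9 of 10 lay above 0 for MS+EA against Control (median 0.37). The first of these rested on B4: without it, 5 of 10 lay above 0 for MS+EA against MS (median -0.06). Cspg4 was the most abundant of the 10, with a mean of 58.4 CPM over all rats. The summed level of the 10 mural genes was 210, 188 and 208 CPM in Control rats, 252, 361 and 230 in MS rats, and 257, 202 and 242 in MS+EA rats. MS rats were thus all above Control rats, and C10 lay among the Control rats.

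B4, the rat with most globin reads by CPM, was also highest of the 9 in mural genes, but the order did not hold below it. C16 and B6, next in globin level (268 and 237 CPM), had 242 and 230 CPM of mural genes. B3 and C3, with 200 and 190 CPM of globins, had more, at 252 and 257 CPM. Acta2, the smooth muscle actin, had 44.1 CPM in B4, 13.1 and 12.1 CPM in B3 and B6, and 8.01 to 9.46 CPM in Control rats. Myh11, the smooth muscle myosin, had 79.6 CPM in B4, 28.8 and 29.6 CPM in B3 and B6, and 19.3 to 21.2 CPM in Control rats. Without B4 the median of the mural list for MS against Control was 0.39, and 9 of 10 genes lay above 0. In the fit of each gene on the globin level within groups, described below, slopes of the mural genes ran from -0.01 (Rgs5, SE 0.151) to 1.25 (Tagln, SE 0.486). Acta2 had 0.83 (SE 0.539) and Myh11 0.57 (SE 0.419), and no mural gene passed that test by edgeR. The part of vessel content in the globin values was not tested.

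The 12 endothelial genes had medians of 0.28, -0.25 and 0.10 in the 3 comparisons, with 11 of 12 above 0 for MS against Control and Slc2a1, the glucose transporter of the barrier, at -0.24. Their summed level overlapped between Control (377 to 505 CPM) and MS rats (445 to 525 CPM). Kdr, the main receptor for vascular endothelial growth factor, is named after its values were seen: it had 27.5, 26.3 and 20.5 CPM in Control rats, 35.1, 59.7 and 41.8 in MS rats and 40.0, 27.0 and 30.1 in MS+EA rats, a log2 fold change of 0.88 (SE 0.193) for MS against Control. That did not pass edgeR's quasi-likelihood test (adjusted p = 0.129) but was called by DESeq2. Cldn5, a tight junction protein of brain endothelium, had means of 47.5, 58.3 and 48.9 CPM in Control, MS and MS+EA rats. Abcb1a, an efflux pump of the blood-brain barrier, passed the adjusted p for MS+EA against Control (0.0224, edgeR) at 1.33-fold, under the fold threshold.

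The 10 neuron genes had medians of 0.05, -0.05 and 0.04. Slc17a7 and Camk2a of glutamatergic neurons passed the adjusted p for MS+EA against Control (0.0207 and 0.0387, edgeR) with log2 fold changes of -0.30 and -0.36, also under the fold threshold. The lists named here overlap in cell source, as endothelial and mural cells line the vessels that hold the blood.

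Beyond the group means, genes were tested for following the globin level from rat to rat within the groups, with the log2 of the summed CPM of the 4 globin genes as a slope. Of 16831 genes outside the 6, 0 were called (0%) by edgeR's quasi-likelihood test at an adjusted p under 0.05, and 1137 had an unadjusted p under 0.05, 561 of them with a positive slope. Hba2 had the smallest adjusted p (0.144, Benjamini-Hochberg), with a slope of 1.13 (SE 0.152), that is, close to proportional to the globin level. With Hba1 alone as the globin level, Hba2 was the only gene called (adjusted p = 0.0384, edgeR). DESeq2 called 4 genes, Hba2, Lgals1, Wnt6 and Vwa3a. The globin level includes Hba1, of which Hba2 is not an independent measurement, so nothing is read from the slope and calls of Hba2. Of the lists, Alas1 had a slope of 0.10 (SE 0.118), Fech of -0.11 (SE 0.117), Cldn5 of 0.12 (SE 0.105) and Aqp1, on few reads, of 3.53 (SE 1.26). Beside Hba2 and Aqp1, the list genes with an unadjusted p under 0.05 were LOC103694855, Tagln, Cdh5, Cd44 and Hp. Their slopes were 3.62 (SE 0.873, on few reads), 1.25 (SE 0.486), 0.58 (SE 0.246), 0.94 (SE 0.420) and -1.23 (SE 0.552). None of them passed the adjustment (adjusted p from 0.675 to 0.728, edgeR).

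The genes whose group-centred log2 CPM was most like the globin level over the 9 rats were Cux2 (Pearson's r 0.99), RGD1306058 (0.98), Sqrdl (0.98), Ak1 (0.97) and Lgals1 (0.95). These are the 5 highest of 16831 genes, given as a description, and all share the library depth of each rat. Cux2, a transcription factor of upper-layer cortical neurons, had 233, 177 and 209 CPM in Control rats, 183, 206 and 190 in MS rats, and 181, 175 and 202 in MS+EA rats. Its Control rats included the highest of the 9, and its slope was 0.39 (SE 0.0819; adjusted p = 0.675, edgeR), so that it moved far less than in proportion to them. Lgals1, which encodes galectin-1, had 6.31, 2.50 and 4.78 CPM in Control rats, 4.25, 7.44 and 4.26 in MS rats and 4.30, 4.49 and 10.4 in MS+EA rats, with a slope of 1.72 (SE 0.274). A2 was lowest and C16 highest for Lgals1, as for Hba1.

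By the slope statistic the 5 leading genes were Hba2, Lgals1, Cux2, Foxc2 and Stard8. Foxc2, a transcription factor of vessel and meningeal development, had 104 reads in B4, 94 in C16 and 1 to 36 in the other rats. B4 and C16 were also the 2 rats with the highest globin level, and the slope was 3.68 (SE 0.798). Stard8 had a slope of 0.51 (SE 0.110).

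**Figure D5:**
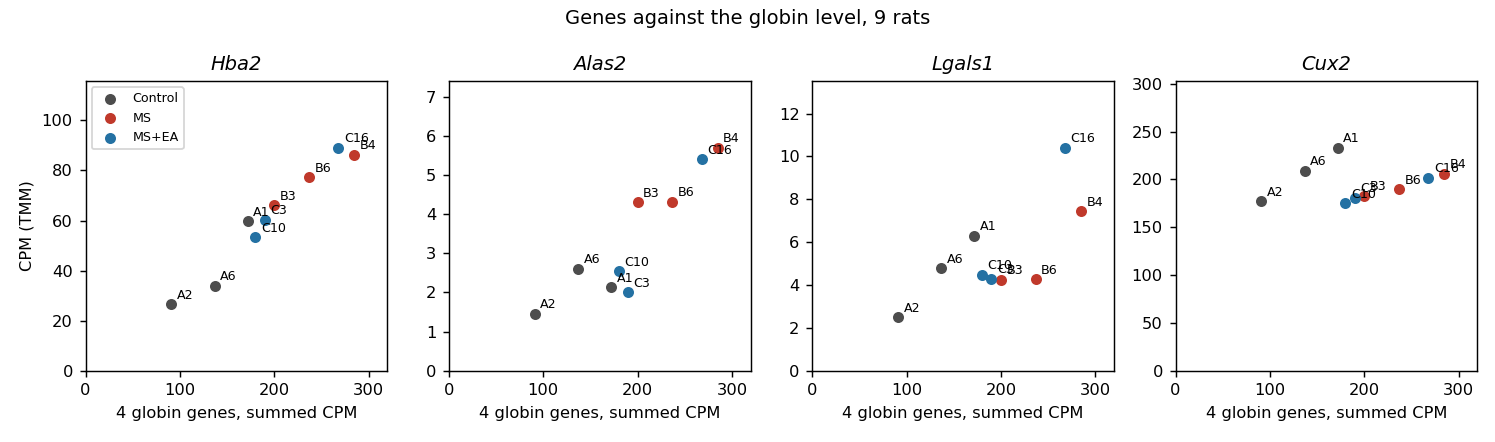
CPM of Hba2, Alas2, Lgals1 and Cux2 (vertical axes) against the summed CPM of the 4 globin genes (horizontal axes) in 9 rats, one point per rat and one colour per group. Hba2 ran from 26.7 CPM in A2 to 89.0 CPM in C16 along with the globin level, while Cux2 stayed between 175 and 233 CPM.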

How the data were processed

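Total RNA from the frontal cortex of 9 rats was sequenced by HiSeq X (Illumina) after depletion of rRNA. The authors filtered the reads, mapped them to Rnor_6.0 with HISAT2 2.0.4 (per the labels and methods) and deposited whole-number counts per gene without normalization. The counting program, its strand setting and the treatment of reads with several locations are not given in the sources used here, and reads of near-identical globin genes may be divided arbitrarily.

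Groups were taken from the sample labels. Counts were analysed in R 4.3.3 with edgeR 4.0.16 (TMM, filterByExpr at a minimum of 10, quasi-likelihood F test with 1 mean per group over all 9 rats, Benjamini-Hochberg over 16837 genes). CPM uses TMM-scaled totals, and SEs were derived from the log2 fold change and its F statistic. The thresholds are those of the study. The globin level is the summed CPM of Hba1, Hbb, LOC100134871 and Hbb-b1. The lists covered globins, the globin family, red cell membrane, erythroid factors, heme synthesis, heme breakdown, platelets, leukocytes, endothelium, mural cells and neurons. Named genes were the 6 genes, the heme synthesis list (1 gene of it is not reported here), called genes or up to 4 abundant ones per list, and the 5 genes most like the globin level by correlation and by slope; any other gene named was chosen after its values were seen, including Rhag, Gata1, Ahsp, Hemgn, Epb42, Hp, Pf4, Ppbp, Mpo, S100a8, S100a9 and Acta2. The 6 genes and the lists were chosen with earlier results of these data known. Alternatives were DESeq2 1.42.0, other scalings, filters and thresholds, the globin level as a covariate, and leaving out each rat. The procedures were tested on simulated data in which all genes shared the same dispersion, so nothing is read from it for genes as variable as the 6. Promoter windows were taken from RefSeq (GRCr8), and plots were drawn with matplotlib 3.10.9.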

Additional observations from a re-analysis of the deposited data

How the results depend on the processing

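With 3 rats per group and no litter, batch or date given, p-values measure the spread between these animals. No paired analysis was possible because each group holds other animals, whose numbers do not pair them. The log2 fold change of the summed globins ranged from 0.63 to 1.07 for MS against Control, -0.38 to -0.03 for MS+EA against MS and 0.46 to 0.90 for MS+EA against Control when each rat was left out. It stayed between 0.84 and 0.88, -0.19 and -0.14, and 0.67 and 0.70 under other scalings or means. Counts of called genes were less stable. For MS against Control the count of 4 became 70 with DESeq2, 207 with genes of at least 1 count and 1 with the globin level as a covariate, and ranged from 2 (without A1 or A2) to 22 (without B3). For MS+EA against MS the count of 3 became 6, 72 and, with at least 10 counts in every rat, 0 by edgeR (1951 genes at an unadjusted p under 0.05), and ranged from 1 (without C16) to 4 (without C10). For MS+EA against Control the count of 230 became 469 with genes of at least 1 count, 910 without a fold threshold and 123 with the covariate, and ranged from 69 (without A1) to 261 (without C3), with 121 without C10. Genes that followed the globin level numbered 1 with Hba1 alone, 4 with DESeq2 and 46 with genes of at least 1 count, and ranged from 0 to 16 (without A2). Hbb was called for MS+EA against Control without C3, but these comparisons chose it, so nothing is read from that call. Under the filter of at least 1 count, Kdr, Hba2, Aqp1, Vtn, Tagln, Myh11 and Acta2 were also called for MS against Control, and Hba2, Aqp1 and Myh11 for MS+EA against Control. Hba2 was called for MS+EA against Control without A1, and Aqp1 without C10. Among single genes, Hbb-b1 moved to -0.27 and -0.22 without C3 and Alas2 to -1.06 and 0.14 without C16 for MS+EA against MS and against Control, and 176 other values of single genes moved by less than the spread between rats, a wide spread for Slc4a1 (0.34 to 1.40 for MS against Control). The causes were not tested.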
